A study of Mus musculus with 11 samples.

Results

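Suppressor of cytokine signaling genes socs1 and socs3 are 2 of the 93 genes of a custom NanoString nCounter probe set, and they were taken by name as the panel's members of the SOCS family. Spleen RNA of 11 female mice was hybridized to the probes, at 50 ng for each mouse. The study asked whether the DNA sensor cGAS drives disease in lupus-prone mice, and the gene expression data set lupus-prone mice with and without cGAS beside B6 mice and B6 mice given a STING agonist. The 5 groups were 3 WT/Mrl, 4 cGAS/Mrl, 1 WT/B6, 1 cGAS KO/B6 and 2 WT/B6 mice that were DMXAA injected. By the methods of the study, Mrl mice are of the MRL/MpJ-Fas lpr strain, which lacks functional Fas and develops a lupus-like disease. Neither Fas lpr nor, for the cGAS/Mrl mice, KO is written in the sample labels. The methods describe cGAS-deficient Mrl mice as made by CRISPR/Cas9 deletion of an exon of the cGAS gene, and cGAS KO/B6 mice as derived from embryos of the EUCOMM mutagenesis program. DMXAA is a synthetic agonist of mouse STING, the adaptor that acts downstream of cGAS. Its dose and timing are not given in the sources used here, and the labels and methods tie no age to these samples. The labels give spleen as the tissue, and the study's text speaks of total splenocytes. Genes for cGAS, STING and Fas are not among those analysed here, so neither the deletion nor the Fas mutation could be looked for in the values. None of the markers looked for, for B cells, T cells, myeloid cells, plasmacytoid dendritic cells and erythroid cells, is among the 93 genes, so the labelled tissue and its cell makeup could not be checked.

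SOCS proteins are feedback inhibitors of cytokine receptors that signal through Janus kinases and STAT transcription factors. Their genes are switched on by the STAT proteins they go on to restrain. SOCS1 binds Janus kinases and is best known for limiting responses to interferons, whereas SOCS3 docks on receptors such as the shared signaling subunit of the interleukin-6 family and limits signaling through STAT3. In the spleen, both are produced by lymphoid and myeloid cells after cytokine exposure.

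The nCounter system counts color-coded probes without amplification, and the deposited signal of a mouse is its counts times 1 normalization factor. All 1023 values were whole multiples of that factor within 0.0001, which gave back the count behind each value. The factor was 0.0823 in the WT/B6 mouse and 0.297 in the cGAS KO/B6 mouse, between 0.670 and 1.36 in the Mrl mice, and after DMXAA 1.61 and 1.64. The total count was 3612 in the WT/B6 mouse and 12386 in the cGAS KO/B6 mouse, 28406 to 58404 in the Mrl mice, and after DMXAA 647148 and 600677. The median count of the 93 genes was 21, 36, 106 to 207, and 681 and 605, in the same order. The uninjected B6 mice thus had the lowest panel counts, and there 46 and 26 of the 93 genes had a count under 20. Their factors were also the lowest, and where a factor brings housekeeping genes to a common level, a low one goes with high housekeeping counts, so panel counts are not read as how deeply a sample was counted. Housekeeping counts were not analysed here. To take out what all genes of a sample share, values are given as log2(count + 1) minus the sample's median over the panel, called the panel-centred value. The panel holds mostly immune genes, many of which moved, so its median is not a neutral reference, and a panel-centred difference says only that a gene was higher or lower relative to the panel median. The ratio of the socs1 to the socs3 count within a sample needs no reference. Its level depends on how well each probe binds, so only differences of the ratio between samples are read.

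The recovered count of socs1 was 163, 364 and 492 in the 3 WT/Mrl mice and 329, 481, 305 and 342 in the 4 cGAS/Mrl mice. It was 21 in the WT/B6 mouse (exact Poisson 95% interval 13.0 to 32.1), 32 in the cGAS KO/B6 mouse (21.9 to 45.2), and after DMXAA 7088 and 7323. Every DMXAA-injected mouse was above every Mrl mouse and every Mrl mouse above both uninjected B6 mice, with no overlap between these 3 kinds of sample. Much of the panel shares this order by count. In mean log2 counts, 88 of the 93 genes were higher in Mrl than in uninjected B6 mice. After DMXAA, 64 were higher than in WT/Mrl mice. How many single genes separate the 3 kinds of sample without overlap was not counted, either by count or relative to the panel median. The panel-centred value of socs1 was 0.62, 1.06 and 1.25 in WT/Mrl mice, 1.11, 1.25, 1.00 and 1.03 in cGAS/Mrl mice, 0 in the WT/B6 mouse, −0.17 in the cGAS KO/B6 mouse, and 3.38 and 3.60 after DMXAA. The order of the 3 kinds of sample was the same as for the counts, and the WT/Mrl and cGAS/Mrl mice overlapped. The WT/B6 and cGAS KO/B6 values lay closer together than the pooled SD of 0.21 within the replicated groups (6 degrees of freedom). Ranked from the highest of the 93 genes within each sample, socs1 was at places 28 to 35 in the Mrl mice, 45 and 50 in the uninjected B6 mice, and 12 and 10 after DMXAA.

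The recovered count of socs3 was 101, 166 and 144 in the WT/Mrl mice and 112, 163, 100 and 156 in the cGAS/Mrl mice. It was 56 in the WT/B6 mouse (exact Poisson 95% interval 42.3 to 72.7), 75 in the cGAS KO/B6 mouse (59.0 to 94.0), and after DMXAA 859 and 716. By count, the uninjected B6 mice were the lowest and the DMXAA-injected mice the highest. The panel-centred value of socs3 was −0.07, −0.07 and −0.52 in WT/Mrl mice, −0.44, −0.31, −0.60 and −0.10 in cGAS/Mrl mice, 1.37 in the WT/B6 mouse, 1.04 in the cGAS KO/B6 mouse, and 0.33 and 0.24 after DMXAA. Relative to the panel median, socs3 was thus highest in the uninjected B6 mice, intermediate after DMXAA and lowest in the Mrl mice without overlap, whereas the uninjected B6 mice were lowest by count. The share of panel genes with such a separation was not counted. Unlike for socs1, the WT/B6 and cGAS KO/B6 values of socs3 lay further apart than its pooled SD of 0.21, which with a lone mouse of each was not tested. Its place among the 93 genes was 49 to 60 in the Mrl mice, 14 in the WT/B6 mouse, 30 in the cGAS KO/B6 mouse, and 44 in each DMXAA-injected mouse.

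**Figure D1:**
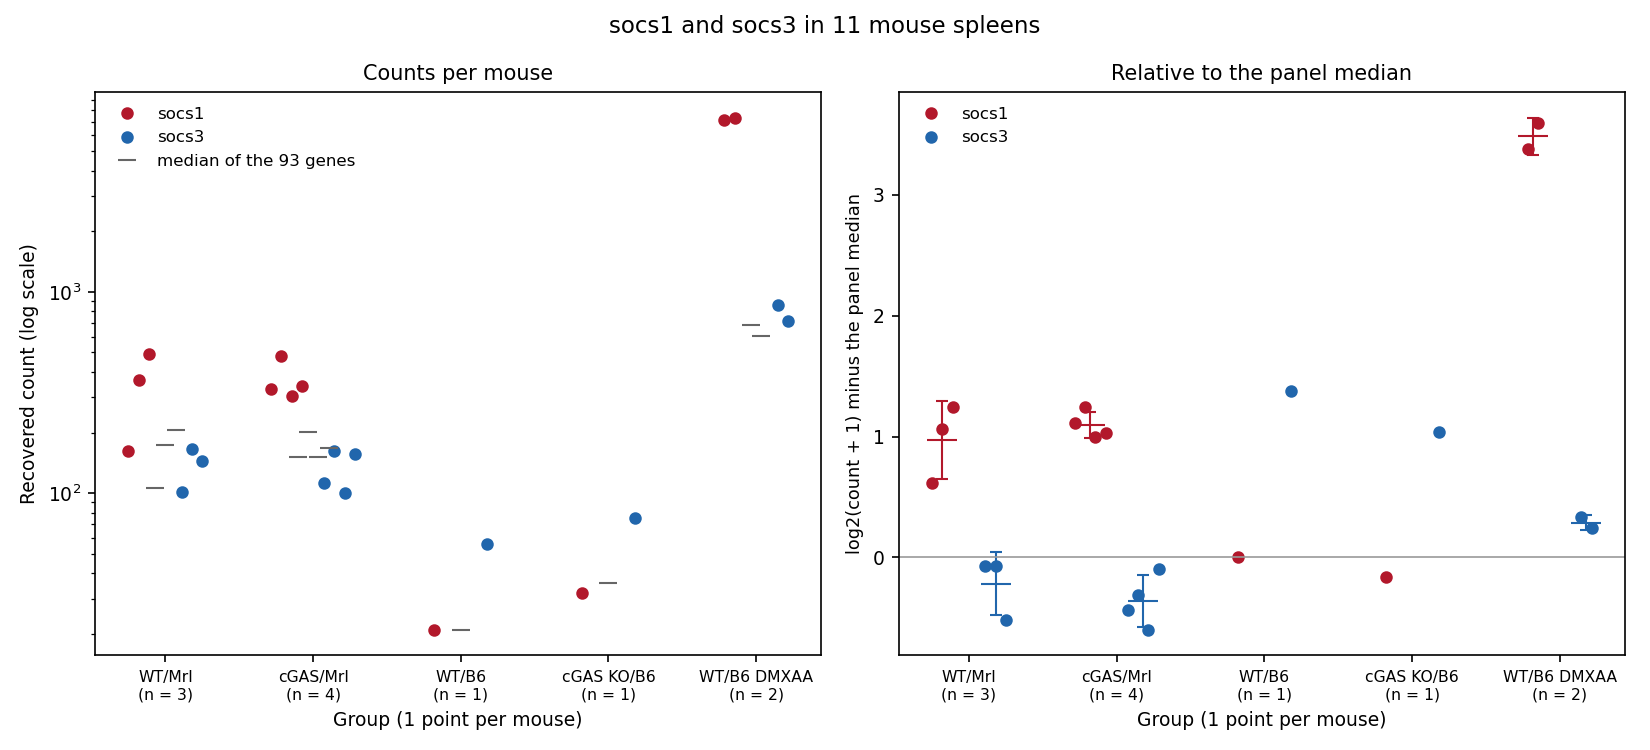
socs1 and socs3 in each of the 11 spleens, as recovered counts on a log axis (left, with a grey dash for the median count of the 93 genes) and as panel-centred log2 values (right). Each point is a mouse, the error bars on the right are the mean and SD of groups with more than 1 mouse, and socs1 lies at 3.38 and 3.60 after DMXAA, whereas socs3 lies at 1.37 and 1.04 in the uninjected B6 mice, although by count socs3 is lowest there.

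The ratio of socs1 to socs3 was 1.61, 2.19 and 3.42 in the WT/Mrl mice and 2.94, 2.95, 3.05 and 2.19 in the cGAS/Mrl mice. It was 0.375 in the WT/B6 mouse (exact 95% interval 0.216 to 0.629) and 0.427 in the cGAS KO/B6 mouse (0.273 to 0.653), and after DMXAA 8.25 and 10.2. Uninjected B6, Mrl and DMXAA-injected mice followed each other in this order with no overlap, while the Mrl genotypes overlapped. The intervals cover counting error only. Of the 4278 pairs of panel genes, 909 (21.2%) have a ratio that orders these 3 kinds of sample without overlap in either direction, so such an order is common on this panel. Within the 7 Mrl mice the SD of the log2 ratio was 0.38, and 58.8% of all gene pairs had a smaller one.

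**Figure D2:**
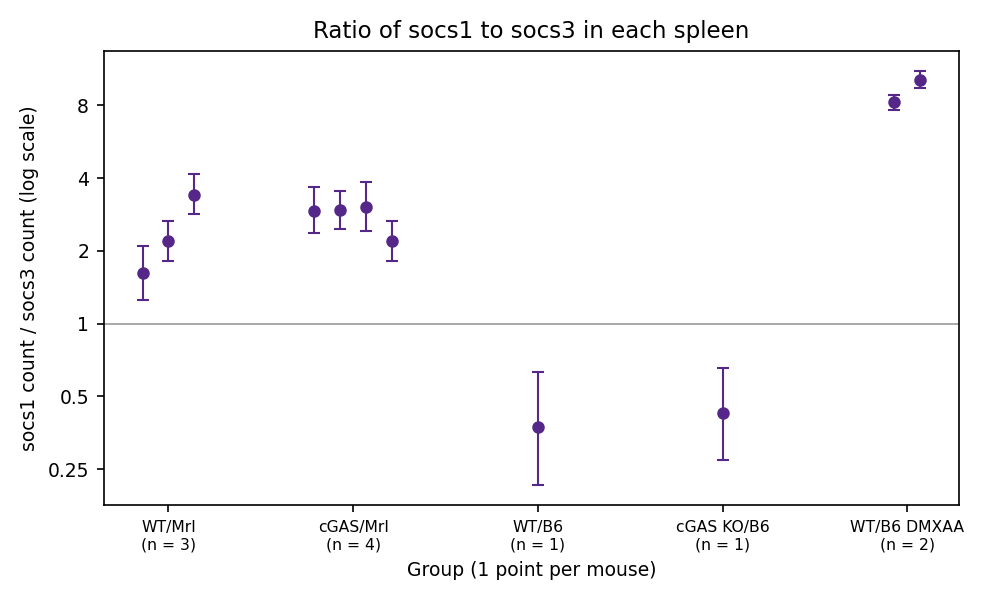
Ratio of the socs1 count to the socs3 count in each spleen, on a log axis, with exact 95% intervals for counting error. The uninjected B6 mice lie at 0.375 and 0.427, the Mrl mice between 1.61 and 3.42, and the DMXAA-injected mice at 8.25 and 10.2.

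Whether loss of cGAS changed either gene in lupus-prone mice was looked at in the 7 Mrl mice. The mean panel-centred value of socs1 was 0.97 ± 0.32 (SD, n = 3) in WT/Mrl and 1.10 ± 0.11 (SD, n = 4) in cGAS/Mrl mice. The difference was 0.12 (SE 0.17, 95% interval −0.26 to 0.51), with a limma adjusted p of 0.997. For socs3 the means were −0.22 ± 0.26 and −0.36 ± 0.21, a difference of −0.14 (SE 0.17, 95% interval −0.54 to 0.25) with a limma adjusted p of 0.997. Both differences were smaller than the pooled SD within the replicated groups, 0.21 for each gene, although that of socs1 was slightly above the SD of the cGAS/Mrl mice alone. In this comparison 0 of the 93 genes were called (0%) at an adjusted p of 0.05 with limma and 1 had an unadjusted p under 0.05. With voom 0 were called and 3 had an unadjusted p under 0.05. The exact two-sided Mann-Whitney test cannot go below 0.0571 with 3 against 4 mice, so its count of 0 was fixed by the design. The log2 ratio of socs1 to socs3 differed by 0.26, with an exact two-sided permutation p of 0.514, where 35 divisions of the mice allow no p under 0.0571. The sign of the socs1 difference rests on WT/Mrl mouse 1, without which it was −0.06. With low genes left out, the differences were 0.26 for socs1 and −0.0046 for socs3, so that of socs3 all but vanished, and neither was called.

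The cytokines that signal through this pathway and its targets likewise had 0 genes called between cGAS/Mrl and WT/Mrl mice. Of 17 ligands looked for, 11 are on the panel, and their median difference was −0.08, compared to −0.01 over all 93 genes. The lowest were Il-4, a cytokine of type 2 immunity, at −0.36 and the type I interferon Ifna4 at −0.20, and the highest were Il23a at 0.24 and the anti-inflammatory cytokine Il-10 at 0.34. The transducer stat3, which carries interleukin-6 and interleukin-10 signals, differed by −0.20 and was not called. The 17 interferon-stimulated genes on the panel had a median of 0.01 and ran from −0.35 for the antiviral gene viperin and −0.33 for Ifit1 to 0.24 and 0.31 for the T cell attracting chemokines cxcl9 and cxcl10. The 15 targets of NF-kB had a median of −0.03, with the neutrophil attractant cxcl2 at −1.02 and the prostaglandin synthase cox2 at −0.44 at the low end, and tnfa at 0.25 and nos2 at 0.30 at the high end. The 5 other feedback inhibitors, which act mostly on NF-kB or interleukin-1 signaling, had a median of −0.02 and ran from −0.27 for duba and −0.11 for IkBa to 0.00 for Il1ra and 0.14 for IrakM.

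The response to DMXAA was measured by 2 injected WT/B6 mice against a lone uninjected WT/B6 mouse. The spread of that control is unknown, so every SE, interval and p of this comparison takes it to vary as the replicated groups did. socs1 rose from a panel-centred value of 0 to a mean of 3.49 ± 0.15 (SD, n = 2). The difference of 3.49 (SE 0.26, 95% interval 2.91 to 4.07) is 11.2-fold relative to the panel median, higher in 2 of 2 injected mice, with a limma adjusted p of 8.36e-07. It was the 10th highest of 93. Its size depends on the reference, with 4.06 by median of ratios, 4.04 with voom and 4.49 when values were centred on genes outside the lists, an alternative chosen after seeing the data. Since 35 of the 93 genes (37.6%) were called higher, a call as such does not set socs1 apart from the panel. socs3 was lower relative to the panel median by −1.08 (SE 0.26, 95% interval −1.67 to −0.50, limma adjusted p 0.00269) in 2 of 2 injected mice, a direction in which 47 genes (50.5%) were called, but its count was higher, and without centring its difference was 7.83 on the deposited scale and 3.78 on that of the counts. Over all 93 genes the median difference was −0.93 after centring, 7.87 on the deposited scale and 3.94 in the counts, so socs3 moved about as the typical panel gene did, whereas socs1 lay above it by 4.20 on the deposited scale. The socs3 call was lost when counts were scaled by median of ratios (−0.54, adjusted p 0.089 with limma), with voom (−0.56, limma adjusted p 0.12), and when values were centred on genes outside the lists (−0.08, limma adjusted p 0.788). The log2 ratio of socs1 to socs3 was higher by 4.57 after DMXAA, a 23.8-fold difference of the ratio, and 33.0% of gene pairs differed by more. With 2 mice against 1, the exact two-sided permutation test cannot go below 0.667, which is the p it gave. Fewer cells of a type and less RNA per cell cannot be told apart in these whole-spleen RNAs.

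Among the JAK-STAT ligands, 4 rose and 7 fell relative to the panel median after DMXAA, with a median of −4.03 beside −0.93 for all genes, although all 11 were higher on the deposited scale. Over all 93 genes, 35 (37.6%) were called higher and 47 (50.5%) lower, so a split near these shares does not set a list apart. The type I interferons Ifnb1 and Ifna4 rose by 6.35 and 3.30 (limma adjusted p 4.32e-08 and 7.53e-05). Ifnb1 had counts of 47509 and 38759 in the injected mice and 17 in the WT/B6 mouse. Il-4, with a count of 5 or less in these 3 mice, was lowest at −5.66, followed by Il12a, a subunit of interleukin-12, at −4.96. The counts of Il12a were 22 and 23 in the injected mice and 24 in the WT/B6 mouse. The transducer stat3 was lower relative to the panel median by −1.81 (limma adjusted p 2.27e-05), although its count was higher, at 431 and 433 against 51. Of the 17 interferon-stimulated genes 12 rose, 0 fell and 5 were not called, with a median of 1.57. Ifit1 and cxcl10 were highest at 7.34 and 7.28, and the DNA-binding proteins mndal and aim2 lowest at −0.19 and 0.01. Of the 15 NF-kB targets 8 rose and 7 fell, with a median of 1.29, from −6.20 for the inflammasome product Il-1b and −4.51 for Il23a to 6.11 for tnfa and 7.29 for the chemokine ccl4. Il-1b was lower by count too, at 20 and 21 after DMXAA against 53 in the WT/B6 mouse. Il23a rests on few counts, 14 and 6 against 7. Of the other feedback inhibitors 3 rose and 2 fell, with a median of 1.61. The ubiquitin-editing enzyme a20 and the NF-kB inhibitor IkBa were highest at 2.63 and 1.92, and the deubiquitinase duba and the interleukin-1 receptor pathway inhibitor IrakM were lowest at −1.48 and −2.94. By count, duba and IrakM were higher after DMXAA, at 643 and 609 against 59 and at 104 and 72 against 22. The rise of socs1 was larger than that of any of these 5 inhibitors. Splits of calls into higher and lower depend on the scale, with 93 and 0 on the deposited scale and with the heatmap scaling, 73 and 2 in the counts, 41 and 39 by median of ratios, 44 and 34 centred on genes outside the lists, and 36 and 35 with voom.

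Mrl mice of both genotypes were compared with both uninjected B6 mice, with each group given the same weight. socs1 was higher relative to the panel median in the Mrl mice by 1.12 (SE 0.17, 95% interval 0.74 to 1.50), or 2.17-fold, in 7 of 7 Mrl mice, with a limma adjusted p of 3.17e-04. This was the 10th highest difference, and 26 genes (28%) were called higher. socs3 was lower relative to the panel median by −1.50 (SE 0.17, 95% interval −1.88 to −1.11), or 2.82-fold, in 7 of 7 Mrl mice, with a limma adjusted p of 5.05e-05, and 38 genes (40.9%) were called lower, but without centring socs3 was higher in the Mrl mice, by 3.58 on the deposited scale and 1.02 in the counts. Only 10 of the 93 genes had a lower difference. The median over all genes was −0.07 after centring, 4.84 on the deposited scale and 2.44 in the counts, and socs3 stayed below that median by 1.26 and 1.42 on the latter scales. The members thus moved to opposite sides of the panel median, and the log2 ratio was higher in Mrl mice by 2.61, or 6.12-fold. The exact two-sided permutation p was 0.0556, the smallest that 36 divisions allow, and 13.7% of gene pairs differed by more. Strain, Fas, panel counts and the normalization factor differ together between these groups, so effects of strain, Fas and normalization cannot be told apart.

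In the same comparison 10 of 11 JAK-STAT ligands were lower relative to the panel median and 1 was not called, with a median of −1.47 beside −0.07 for all genes, although all 11 were higher on the deposited scale. Over all 93 genes, 26 (28%) were called higher and 38 (40.9%) lower. Many of the ligand values rest on few counts. Ifna4 and Ifnb1 were lowest at −3.40 and −3.22, with counts of 3 to 11 and 9 to 19 in the Mrl mice and 11 to 14 and 17 to 23 in the uninjected B6 mice. The T cell cytokines Il21 and Ifng were the least low at −0.55 (limma adjusted p 0.194) and −0.98 (limma adjusted p 0.0159). The transducer stat3 was at −0.06 (limma adjusted p 0.718). Of the interferon-stimulated genes 10 were higher, 3 lower and 4 not called, with a median of 0.62. Highest were cxcl9 at 3.98 and the interferon-inducible GTPase Ifi47 at 2.47, and lowest were the antiviral genes oas2 at −0.88 and Ifit1 at −0.86. Several of the higher calls rest on 1 of the 2 uninjected B6 mice. For aim2, values were 0.79 in WT/B6 and 2.61 in cGAS KO/B6, against 2.03 to 2.59 in the Mrl mice. For the gene at the median, they were 1.30 and 2.97, against 2.60 to 2.82. Ifi204 was at −0.87 in WT/B6, within the Mrl range of −1.17 to −0.75, and at −2.62 in cGAS KO/B6. Of the NF-kB targets 2 were higher, the chemokines cxcl6 at 2.55 and ccl5 at 1.34, and 8 were lower, with Il23a at −3.07 and Il6 at −1.96 the lowest and a median of −0.81. Of the other inhibitors, with a median of 0.13, duba and Il1ra were higher by 0.67 and 0.57, IrakM was lower by −0.82, and IkBa at −0.07 and a20 were not called. For duba, IkBa and a20, the WT/B6 mouse lay below every Mrl mouse and the cGAS KO/B6 mouse above every Mrl mouse. The duba value was 1.45 in WT/B6 and 4.32 in cGAS KO/B6, against 3.27 to 3.87 in the Mrl mice. Its higher call thus rests on the WT/B6 mouse. Calls split into 93 higher and 0 lower on the deposited scale and with the heatmap scaling, 83 and 2 in the counts, and 35 and 32 with centring on the mean.

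DMXAA-injected WT/B6 and WT/Mrl mice are the pair of groups that both have replicates and intact cGAS. Strain, Fas and injection differ together between them, so their effects cannot be told apart. Relative to the panel median, socs1 was higher in the DMXAA-injected than in the WT/Mrl mice by 2.51 (SE 0.19, 95% interval 2.08 to 2.94), or 5.71-fold. Its limma adjusted p was 6.94e-07, and 31 genes (33.3%) were called higher and 50 (53.8%) lower. socs3 was higher by 0.51 (SE 0.19, 95% interval 0.07 to 0.94), or 1.42-fold, with a limma adjusted p of 0.0305. Each injected mouse was above each WT/Mrl mouse for both genes. With 81 of the 93 genes called in either direction, such a separation does not set them apart, and its share of the panel was not counted. The socs3 call was lost without WT/Mrl mouse 3 (0.36, limma adjusted p 0.103), without DMXAA-injected mouse 1 (0.46, limma adjusted p 0.125) or mouse 2 (0.55, limma adjusted p 0.0761), and with low genes left out (0.46, limma adjusted p 0.0557). It was larger with centring on the mean (0.80, limma adjusted p 0.00295), by median of ratios (1.22, limma adjusted p 2.05e-04), with voom (1.25, limma adjusted p 4.63e-06) and centred on genes outside the lists (1.60, limma adjusted p 4.11e-05). On the last 3 of these socs1 was at 3.22, 3.21 and 3.60, so the size of both differences depends on the reference. Without centring, socs3 was higher by 3.19 on the deposited scale, 2.54 in the counts and 3.24 with the heatmap scaling. On the same scales socs1 was higher by 5.20, 4.54 and 5.21. The log2 ratio was higher by 2.00, or 4.01-fold, with an exact two-sided permutation p of 0.2, the smallest that 10 divisions allow, and 62.0% of gene pairs differed by more. The median over all genes was −0.84 after centring, 1.84 on the deposited scale and 1.19 in the counts, and both members lay above it on each of these scales.

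Between these groups 4 JAK-STAT ligands were higher relative to the panel median and 5 lower, with a median of −1.11, from −3.73 for Il12a and −3.68 for Il21 to 7.14 for Ifna4 and 9.70 for Ifnb1. Over all 93 genes, 31 (33.3%) were called higher and 50 (53.8%) lower. The transducer stat3 was lower by −2.36, and its counts after DMXAA, 431 and 433, were below those of 2 of the 3 WT/Mrl mice. Of the interferon-stimulated genes 9 were higher and 7 lower, with a median of 1.12 and with Ifit1 at 8.21 and Ifit2 at 5.76 the highest and cxcl9 at −2.10 and nlrc5, a regulator of MHC class I genes, at −1.84 the lowest. Of the NF-kB targets 6 were higher and 5 lower, with a median of 0.38, from −6.18 for Il-1b and −2.98 for nfkb2 to 6.04 for tnfa and 8.16 for ccl4. Of the other inhibitors 3 were higher and 2 lower, with a median of 1.06. Here a20 was higher by 1.42 and Il1ra by 1.33, and duba was lower by −3.73 and IrakM by −1.87. Calls split into 52 higher and 5 lower on the deposited scale and with the heatmap scaling, 52 and 20 in the counts, and 42 and 32 centred on genes outside the lists.

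Whether the cGAS genotype acted on these genes in another way in Mrl than in B6 mice was tested as the difference of its effects, which rests on a lone mouse per B6 genotype. For socs1 it was 0.29 (SE 0.34, 95% interval −0.47 to 1.05, limma adjusted p 0.571) and for socs3 0.19 (SE 0.34, 95% interval −0.57 to 0.96, limma adjusted p 0.701). Neither was called, while 5 genes (5.38%) were called higher and 26 (28%) lower. The signs of both turned on the deposited scale, in the counts and with the heatmap scaling, where both were called, socs1 at −2.93 (limma adjusted p 0.0241) and socs3 at −4.28 (limma adjusted p 0.00109). That scaling takes off a minimum, here each gene's own, as the methods do not say over what it was taken. The WT/B6 mouse has the lowest signal of both genes, 1.73 and 4.61, and is set to 0, so its gap to the cGAS KO/B6 mouse follows in part from the formula, and these calls are not read as an effect of genotype. The log2 ratio of socs1 to socs3 differed by 0.26 between the Mrl genotypes and by 0.17 between the B6 mice, and the difference between these values was not tested. Since 0 genes were called between the Mrl genotypes, these calls rest largely on the gap between 2 single B6 mice, judged by the spread of the other groups, and some on few counts. Of the JAK-STAT ligands 0 of 11 were called, with a median of 0.31 beside −0.25 for all genes, from −0.26 for Il12b and −0.10 for Il21 to 0.96 for Il6 and 1.24 for Il-10. The transducer stat3 was lower by −1.21 (limma adjusted p 0.00869). Of the interferon-stimulated genes 1, Ifi204 at 1.74, was higher and 9 were lower, with a median of −0.80. Ifi204 had a count of 11 in the WT/B6 and 5 in the cGAS KO/B6 mouse. The lowest were viperin at −2.12 and mndal at −1.90, and next to Ifi204 at the high end was Ifi205 at 0.54, which was not called. Of the NF-kB targets 1, Il-1a at 1.00, was higher and 5 were lower, led by cox2 at −2.69 and nfkb2 at −1.67, with a median of −0.26 and with nos2 at 1.71 not called. In the WT/B6 and cGAS KO/B6 mouse, the counts were 16 and 12 for Il-1a and 2 and 23 for cox2. Of the other inhibitors 3 were lower, led by duba at −3.14 and a20 at −2.17, with a median of −1.87, while IrakM at 0.51 and Il1ra at 0.57 were not called. Calls split into 0 higher and 29 lower on the deposited scale, 0 and 66 with the heatmap scaling, 0 and 19 in the counts, 10 and 21 with centring on the mean, 17 and 12 by median of ratios, 8 and 21 centred on genes outside the lists, 9 and 21 with low genes left out, and 4 and 8 with voom.

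The comparisons share mice. WT/B6 is part of the DMXAA comparison and of that with the Mrl mice, and WT/Mrl and DMXAA-injected mice each enter more than 1 comparison, so they are not independent. Side by side, the panel-centred differences of socs1 were 0.12 for cGAS/Mrl against WT/Mrl and 1.12 for Mrl against uninjected B6. They were 3.49 for DMXAA against WT/B6 and 2.51 for DMXAA against WT/Mrl. Those of socs3 were −0.14, −1.50, −1.08 and 0.51 in the same order. On the deposited scale, the −1.50 and −1.08 of socs3 turned to 3.58 and 7.83.

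Nearness of pattern was measured as the root mean square difference between the 5 group means of panel-centred values, after each gene's own mean was taken off. Nearest to socs1 were Irf7, the transcription factor that amplifies type I interferon production, at 0.59, the chemokine ccl5 and the interleukin-1 receptor antagonist Il1ra at 0.62 each, and the interferon-inducible DNA-binding protein Ifi204 at 0.63, compared to a median of 1.88 over the 92 other genes. Differences after DMXAA were 2.00, 3.53, 1.61 and 3.46 in these 4 genes, and in Mrl against uninjected B6 mice 0.05, 1.34, 0.57 and 0.85. The DMXAA group is part of the measure that chose these genes, so their rise there is no separate result. Irf7 was not called in the Mrl mice (limma adjusted p 0.852). The Mrl difference of Ifi204 rests on the cGAS KO/B6 mouse, at −2.62. Its mean was −0.90 in WT/Mrl and −0.87 in WT/B6 mice. For ccl5, the WT/B6 mouse was at 1.32 and the cGAS KO/B6 mouse at 2.74, with Mrl means of 3.32 and 3.42. For Il1ra, these B6 mice were at −0.55 and −1.12, with a mean of −0.27 in either Mrl genotype. Nearest to socs3 were Il12b, a subunit of interleukin-12 and interleukin-23, at 0.22, the alarmin Il-33 at 0.36, the RNA sensor tlr3 at 0.42 and the inflammasome sensor nlrp3 at 0.43, with a median of 1.26. Their group differences likewise follow in part from how they were chosen. In Mrl against uninjected B6 mice these differed by −1.47, −1.40, −0.87 and −0.99, and after DMXAA by −0.93, −1.79, 0.09 and −1.71. Counts of Il-33 were 18 or less in every mouse. socs3 was only the 40th nearest gene to socs1, at 1.73.

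Promoter sequences are shown because the genes moved apart between the groups and because SOCS genes are known targets of STAT and IRF factors. They are RefSeq sequences of build GRCm38.p6, while the deposited table names no build. Windows of 300 bases around 32851 annotated starts, as the RefSeq promoter table gives them, were searched on both strands for the STAT motif GAS (TTCNNNGAA), held by 8.30% of them, and the core of the interferon-stimulated response element (GAAANNGAAA), held by 3.44%. Of the 93 panel genes, 57 were matched by symbol, and 14 of these (24.6%) held the STAT motif and 10 (17.5%) the response element core. For Socs1, the 250 bases before its start are at chr16:10785537-10785786, directly upstream of the gene record, on the minus strand. For Socs3, the stretch of 250 bases that precedes the start used in the table is at chr11:117969367-117969616, also on the minus strand. It lies inside the gene record, which runs from 117966079 to 117970336 and holds 3 transcripts, so it is upstream of that start and not of the whole gene. Whether it is exonic or intronic in a longer transcript is not given in the tables used here, and only 29 bases around its motif are printed, at chr11:117969502-117969530. Both are written 5′ to 3′ along the gene, with the motifs in capitals. In Socs1 these are a pair of overlapping response element cores that end 74 and 68 bases before the start, and in Socs3 a single STAT motif that ends 146 bases before the start used in the table.
Socs1: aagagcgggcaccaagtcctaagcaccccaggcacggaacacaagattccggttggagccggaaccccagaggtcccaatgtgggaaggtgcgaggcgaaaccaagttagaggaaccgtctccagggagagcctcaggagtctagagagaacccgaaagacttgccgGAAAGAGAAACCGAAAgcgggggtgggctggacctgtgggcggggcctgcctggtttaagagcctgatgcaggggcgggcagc
Socs3: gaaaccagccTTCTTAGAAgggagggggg
No STAT motif was found in the window of Socs1 and no response element core in that of Socs3. A match is a description of the letters only, and binding was not measured.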

How the data were processed

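Values were the signal that the authors deposited after normalization to housekeeping genes, which the sources used here do not name. None of 19 common housekeeping names is among the 93 genes, and negative-control probes were not analysed, so the background is unknown. Counts were recovered as signal divided by each sample's factor, and log2(count + 1) was centred on the sample's panel median. Two-sided tests of all 93 genes used lmFit and eBayes of limma 3.58.1 under R 4.3.3. P-values were adjusted by Benjamini-Hochberg, and 0.05 was the threshold. The Mrl genotypes were fitted on their 7 mice, and other comparisons on 11 samples in 5 groups with 6 residual degrees of freedom, where lone B6 mice are assumed to vary like other groups. Ratios were tested by exact permutation (SciPy 1.17.1, Python 3.11.15). Plots were made in Matplotlib 3.10.9. Simulated data were used to test the limma step, and no outcome of that is reported here. Labels number the mice, which were treated as separate animals, and replicates differed by more than sampling noise (chi-square 2.91 to 27.1 times its degrees of freedom). Named were socs1, socs3, the 4 genes nearest to each in pattern, and of each pathway list the 2 highest and 2 lowest differences. A gene that this rule would name is not reported here. Members and lists were chosen with earlier results of these data known. Alternatives changed the scale, pseudocount, centring, low-count filter, model, controls and samples.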

Additional observations from a re-analysis of the deposited data

Results flagged for a closer look

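The ratio of socs1 to socs3 of cGAS/Mrl mouse 4, at 2.19, lay apart from those of the other 3 cGAS/Mrl mice, at 2.94, 2.95 and 3.05. On the log2 scale its gap to the nearest mouse was 0.888 of the range of the group. In this mouse the panel-centred value of socs3 was the highest of the 4, at −0.10, and that of socs1 was 1.03. The ratio lay within the range of the WT/Mrl mice, 1.61 to 3.42. Of 5 measures looked at in this group, 1 passed the limit for a sample far from the others. Chance alone gives about 1 in 20 for each measure, and more often than that for any 1 of the 5.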

How the results depend on the processing

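socs1 kept its direction and its call in all 21 alternatives in each of the comparisons of DMXAA with WT/B6, Mrl with uninjected B6 and DMXAA with WT/Mrl. In DMXAA against WT/B6, socs3 turned to 7.83 on the deposited scale, 3.78 in the counts without factors or centring and 10.31 with the heatmap scaling, and lost its call at −0.54 by median of ratios, −0.56 with voom and −0.0788 with centring on unlisted genes, which was chosen after seeing the data. In Mrl against uninjected B6, it turned to 3.58, 1.02 and 4.93 on the same 3 uncentred scales and kept direction and call in the other 18 alternatives. In DMXAA against WT/Mrl it lost its call at 0.46 with low genes left out and grew to 0.80 with mean centring, 1.22 by median of ratios, 1.25 with voom and 1.60 with centring on unlisted genes, and on the last 3 socs1 grew to 3.22, 3.21 and 3.60, as in DMXAA against WT/B6 to 4.06, 4.04 and 4.49. For cGAS/Mrl against WT/Mrl, leaving out low genes gave 0.26 for socs1 and −0.0046 for socs3 and no call. Uncentred scales keep the shift that all genes of a sample share.

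The difference between backgrounds in the effect of cGAS turned to −1.74, −0.37 and −2.93 for socs1 and −2.12, −0.46 and −4.28 for socs3 on the deposited scale, in the counts and with the heatmap scaling (limma adjusted p 0.0241 and 0.00109 on the last, where each gene's own minimum, that of the WT/B6 mouse, is set to 0), and to −0.0947 for socs3 with a pseudocount of 1 on the signal. Its calls were 19 in the counts, 66 with the heatmap scaling and 12 with voom, compared to 31. The cause was not tested. The log2 ratio moved to 3.20 with the heatmap scaling and 4.96 with the 10th percentile of counts taken off, an alternative chosen after seeing the data, for DMXAA against WT/B6, and to 1.91 and 3.03 for Mrl against uninjected B6.

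Leaving out each Mrl or DMXAA-injected mouse in turn gave, for cGAS/Mrl against WT/Mrl, 0 calls, socs1 −0.0562 to 0.26, socs3 −0.29 to −0.06 and log2 ratio 0.01 to 0.55. For DMXAA against WT/B6 it gave 80 to 83 calls, 3.38 to 3.60, −1.13 to −1.04 and 4.42 to 4.73, for Mrl against uninjected B6 62 to 67 calls, 1.05 to 1.21, −1.54 to −1.42 and 2.47 to 2.74, and for DMXAA against WT/Mrl 78 to 83 calls, 2.33 to 2.65, 0.36 to 0.58 and 1.75 to 2.29. For the difference between backgrounds it gave 25 to 34 calls, 0.11 to 0.42 and 0.04 to 0.27. The lone uninjected B6 mice were not left out in turn. With WT mice only, Mrl against B6 gave 60 calls, socs1 0.97, socs3 −1.59 and log2 ratio 2.57.

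With the mouse number as a replicate block over mice 1 to 3, socs1 differed by 0.14, socs3 by −0.23 and the log2 ratio by 0.37 between Mrl genotypes, with 0 genes called. Correlations of deviations between mice of the same number were −0.21, 0.25 and 0.08, too few values to tell whether the numbers pair the mice. The block changed no call.

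Counts of 21 and 32 for socs1 in lone B6 mice limit every comparison with them, and their own biological spread is unknown. How much of these low counts is background was not tested.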

Other observations

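As a share of all recovered counts of a sample, socs3 was 1.55% in the WT/B6 mouse, 0.606% in the cGAS KO/B6 mouse, 0.232% to 0.356% in the Mrl mice, and after DMXAA 0.133% and 0.119%. The share of socs1 was 0.581% and 0.258% in the uninjected B6 mice, 0.574% to 0.842% in the Mrl mice, and 1.10% and 1.22% after DMXAA. By this measure the WT/B6 mouse was not below all Mrl mice for socs1. The antiviral gene viperin alone had counts of 181097 and 174684 in the DMXAA-injected mice, out of totals of 647148 and 600677.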
